A study of Mus musculus with 2 samples.

Results

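The genes described here encode the proximal signalling machinery of the receptor for gonadotropin-releasing hormone (GnRH): G-protein alpha subunits, phospholipases C, protein kinases C and D, the tyrosine kinases Ptk2b and Src, inositol trisphosphate (InsP3) receptors and calmodulin-dependent protein kinase II. They were taken by name: 36 genes, found as 89 spots of 71 probes, of 34797 gene names on the array. Of these 36 genes, 34 had a probe well above background on both arrays, and Plcb2 and Prkcq did not. Over the whole array, 21105 of the 34797 gene names had such a probe.

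The study hybridised total RNA of cells labelled GT1-7, an immortalised mouse hypothalamic neuron line, to 2 Agilent 1-colour arrays. Cells were grown with fetal calf serum and gentamicin. The GnRH group (1 array) was given 50 nM of the peptide for 30 min, and the vehicle group (1 array) was given DMSO for 30 min. No genotype or strain is labelled beyond the line itself, and a single line in culture stands for the cell type. The free-text description of both samples names 100 nM bradykinin and A549 cells instead, while every other label names GT1-7. Of the markers of the labelled cell type, Gnrh1, which encodes the peptide these neurons secrete, stayed below the background call on both arrays with its 2 probes, as did Six6. Relative signal is a probe's processed signal divided by its array's 75th percentile, so that 1 marks that percentile. The other 5 of the 7 GnRH neuron markers were measured, with a summed relative signal of 4.94 on the GnRH array and 4.65 on the vehicle array, of which Isl1 alone gave 4.58 on the GnRH array and 4.25 on the vehicle array. Kiss1r, Ndn, Otx2 and Dlx5 were dim, and their differences had both signs, from -0.59 (Otx2) to 0.62 (Dlx5). The gonadotrope markers were well above background on both arrays for 5 of 6 genes, and their summed relative signal was 288 on the GnRH array and 306 on the vehicle array, carried by Cga, Pitx1, Nr5a1 and Gnrhr. Of the gonadotropin beta subunit genes, Fshb stayed below the background call on both arrays and Lhb had 0.133 on the GnRH array and 0.124 on the vehicle array. Pan-neuronal markers were measured for 4 of 6 genes (summed relative signal 57.0 on the GnRH array and 53.3 on the vehicle array), and Stmn2 and Rbfox3 were not. Most of that sum came from Tubb3, with 43.5 on the GnRH array and 39.5 on the vehicle array. Markers of astrocytes were measured for 3 of 4 genes (1.66 on the GnRH array and 1.72 on the vehicle array) and those of microglia for 3 of 4 (11.2 on the GnRH array and 11.4 on the vehicle array). The microglia sum was carried by 1 probe each of Itgam (8.43 on the GnRH array, 8.65 on the vehicle array) and Csf1r (2.74 and 2.68). Of the other Csf1r probes, the brighter was well above background on both arrays, with 0.694 on the GnRH array and 0.659 on the vehicle array. The dimmer was well above background on the GnRH array only, at 0.033. The other Itgam probes were dim, at 0.094 and 0.058 on the GnRH array. Aif1 was dim as well, and Cx3cr1 stayed below the background call on both arrays. Gnrh1 was thus below the background call in cells labelled as GnRH neurons, while Cga, Pitx1, Nr5a1 and Gnrhr were bright. The identity of the cells was not tested and is taken from the label only. The part of other cells in the values below was also not tested, and in bulk RNA fewer cells of a type and less RNA per cell cannot be told apart.

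With 1 array per group, no difference has a replicate check and no test was made; the number of arrays limits the precision. The share of spots well above background was 56.9% on the GnRH array and 55.2% on the vehicle array, and no spot was saturated. Differences are log2 values, GnRH minus vehicle, given after ± with the scanner software's own error unless an SD is named, and without it for most second probes and most genes of the pathway lists. That error is technical and holds no variation between cultures. Its median was 0.20 for the measured genes of the set. Over 262 probes printed on 10 spots, the SD of a single-spot difference was smaller, at 0.10. A difference within the scanner error can therefore still lie past that SD.

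As background, the GnRH receptor is a G-protein-coupled receptor that acts mainly through the Gq/11 class. Activated Gq/11 alpha subunits switch on beta-type phospholipases C, which cleave a membrane phosphoinositide into InsP3 and diacylglycerol. InsP3 opens calcium channels of the endoplasmic reticulum, diacylglycerol and calcium recruit protein kinases C, and these kinases lead to the MAP kinases and to immediate-early genes such as Fos. In gonadotropes this route couples the peptide to gonadotropin synthesis, and GnRH neurons can carry the same receptor.

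The arrays read these genes through probes of 60 nt. The sequences below are from the scanner files, 5′ to 3′ and in lower case, and are shown because the values that follow rest on them. The first 3, for Src, Prkd3 and Prkcz, are complete: their listed positions span more bases than the probe has, so each crosses an intron. Of the others the first 30 bases are given, for genes at each step of the Gq/11 route and for a pair of neighbouring Camk2d probes that differed from each other. Positions are in build mm9; whether a probe lies in coding or untranslated sequence was not looked up.
Src, chr2:157293336-157294267, plus strand: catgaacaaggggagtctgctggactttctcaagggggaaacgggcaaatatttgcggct
Prkd3, chr17:79351323-79352028, minus strand: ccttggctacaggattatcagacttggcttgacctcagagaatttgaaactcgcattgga
Prkcz, chr4:154636587-154636816, minus strand: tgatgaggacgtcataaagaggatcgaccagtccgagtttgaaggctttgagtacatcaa
Gnaq, chr19:16461861-16461920, plus strand: ctttgttctcagtttctcaaaagaacgaat
Gna11, chr10:80991671-80991730, minus strand: caaacttcagcctatttaagagaacactca
Plcb3, chr19:7028280-7028339, minus strand: ataggtactccccgattcccaaggagcagc
Prkcd, chr14:31409035-31409094, minus strand: tcctttgtgaatcccaagtttgagcaattc
Itpr3, chr17:27259102-27259161, plus strand: tacatgtcctgtgtcctggggactaatgtg
Camk2d first probe, chr3:126543223-126543282, plus strand: gtgatgggaagtggcagaatgttcactttc
Camk2d second probe, chr3:126543318-126543377, plus strand: tgctcttgatggtaggcaaatgtagaaagc

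None of the 34 measured genes differed 2-fold between the arrays. The count was 0 of 34 higher and 0 of 34 lower on the GnRH array, where 0.308% of all 21105 measured genes passed 2-fold upwards and 0.133% passed it downwards. At 1.5-fold it was again 0 of 34 in each direction, against 1.19% of all measured genes higher and 0.872% lower. Shares this low over all genes would give fewer than 1 gene among 34, so the counts do not set these genes apart. The median difference was -0.04 on the log2 scale for the 34 genes and -0.01 for all measured genes. Below 0 lay 24 of the 34, where 52.5% of all measured genes did. Fos, the immediate-early gene downstream of the route, had a relative signal of 12.4 on the GnRH array and 0.196 on the vehicle array, a difference of 5.98 ± 0.07 (scanner error), or 5.26 with no background correction. The receptor gene Gnrhr itself had 25.2 on the GnRH array and 25.7 on the vehicle array (-0.03 ± 0.20).

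**Figure D1:**
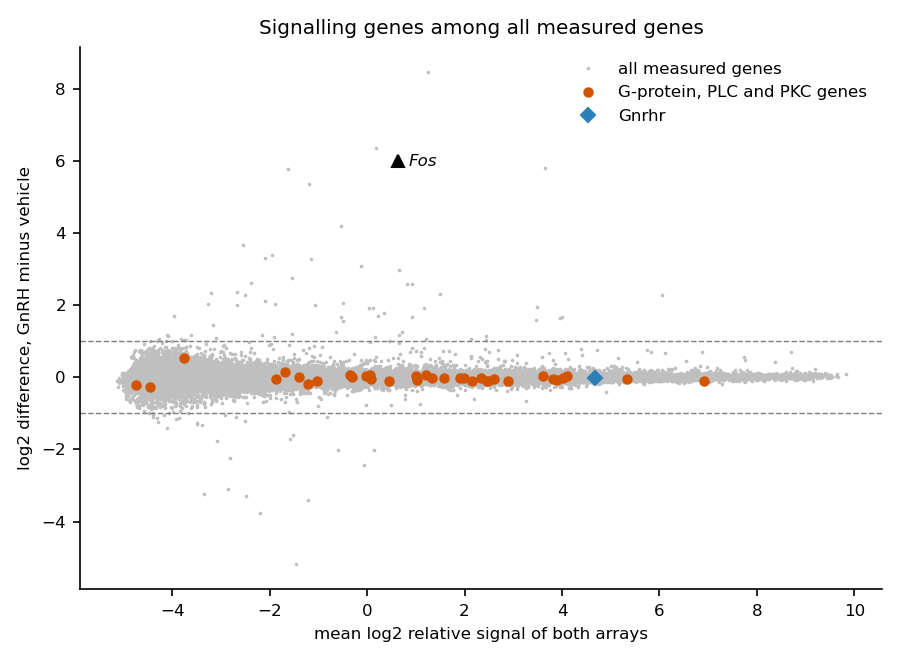
Log2 difference (GnRH minus vehicle, vertical axis) against the mean log2 relative signal of both arrays (horizontal axis) for the 21105 measured genes (grey), the 34 measured signalling genes (orange), Gnrhr (blue diamond) and Fos (black triangle); dashed lines mark 2-fold. The 34 genes lie between -0.27 and 0.52, while Fos lies at 5.98.

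The alpha subunits of Gq and G11, which couple the receptor to phospholipase C, were well above background and nearly equal on both arrays. Gnaq had a relative signal of 4.996 on the GnRH array and 5.063 on the vehicle array, a difference of -0.02 ± 0.20. Gna11 had 12.2 on the GnRH array and 12.1 on the vehicle array (0.02 ± 0.20). Both are read by 1 probe each. The stimulatory subunit gene Gnas, which drives adenylyl cyclase, had 117 on the GnRH array and 125 on the vehicle array (-0.09 ± 0.20). Its other probe above background on both arrays, listed for another transcript of the same imprinted locus, differed by 0.03. The inhibitory subunits restrain adenylyl cyclase. Of these, Gnai1 had 0.802 on the GnRH array and 0.806 on the vehicle array (-0.01 ± 0.20), Gnai2 had 39.5 on the GnRH array and 41.2 on the vehicle array (-0.06 ± 0.20), and Gnai3 had 13.9 on the GnRH array and 14.4 on the vehicle array (-0.04 ± 0.20). Of the G12/13 class, Gna12 had 7.16 on the GnRH array and 7.74 on the vehicle array (-0.11 ± 0.20). Gna13 had 2.96 on the GnRH array and 2.99 on the vehicle array (-0.01 ± 0.20). The Gi-class subunits abundant in neurons were also close by their brightest probes. Gnao1 had 2.52 on the GnRH array and 2.55 on the vehicle array (-0.02 ± 0.20), and Gnaz had 0.269 on the GnRH array and 0.278 on the vehicle array (-0.05 ± 0.21). The other Gnao1 probe was dimmer (0.087 on the GnRH array, 0.106 on the vehicle array) and gave -0.30 ± 0.24, more than its scanner error. The other Gnaz probe gave 0.07. All 10 subunits were measured, and the differences of their brightest probes ran from -0.11 to 0.02. Levels of different genes are not ranked here, because probes differ in how brightly they report the same amount of RNA.

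**Figure D2:**
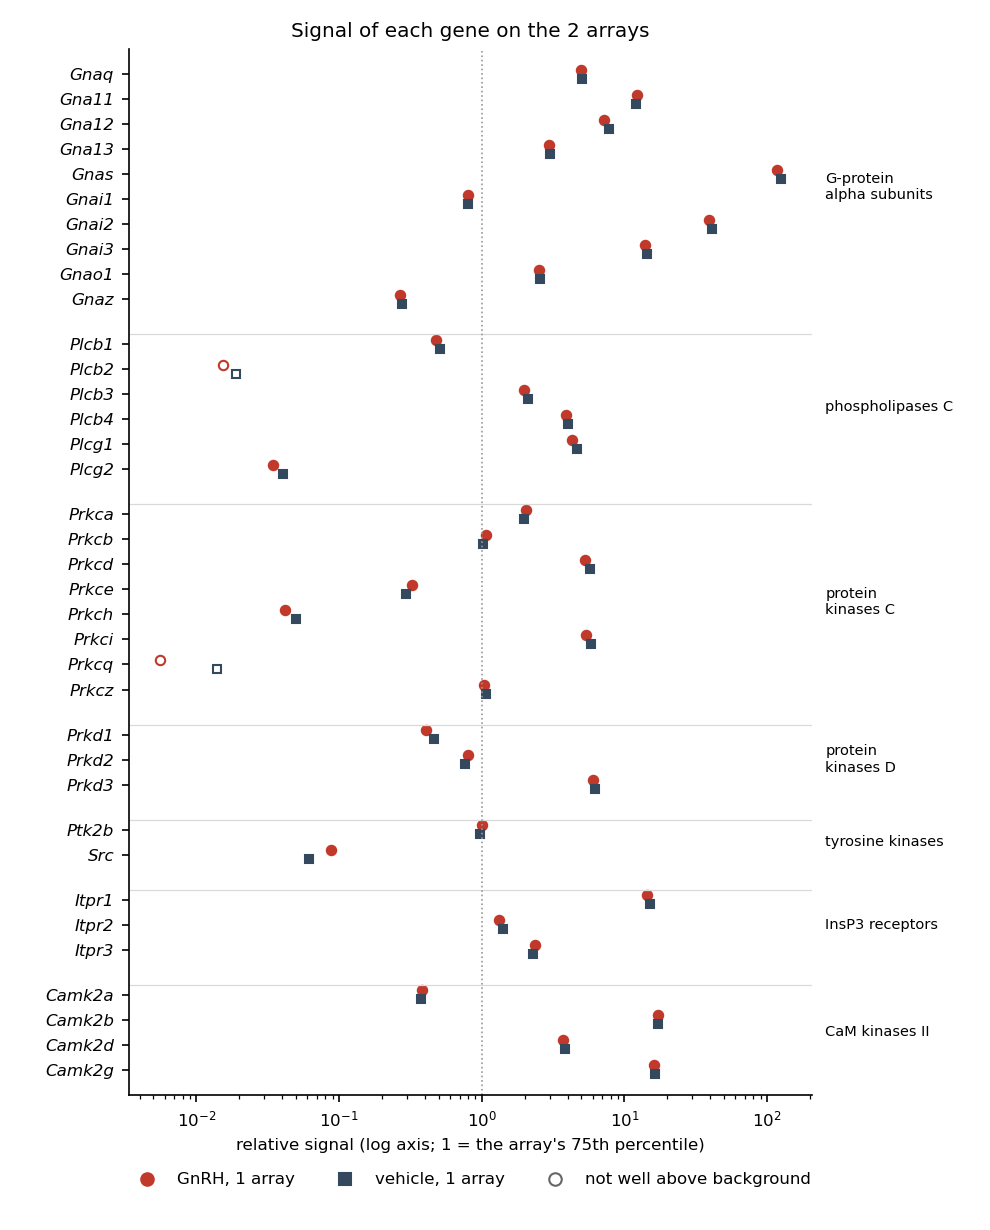
Relative signal (log axis, 1 = the 75th percentile of the array) of the brightest probe of each of the 36 genes on the GnRH array (red circles) and the vehicle array (dark squares, just below), grouped by role; open marks are genes not well above background. The marks of a gene lie close together for all but Src among the measured genes, and Plcb2 and Prkcq are open.

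Phospholipases C were measured for 5 of 6 genes, and all 5 differences lay below 0, from -0.23 to -0.03. Each of these differences was smaller than its scanner error, but only those of Plcb3 and Plcb4 were also within the single-spot SD of 0.10. Of all measured genes, 52.5% also lay below 0. The beta isoforms answer to Gq/11: Plcb1 had a relative signal of 0.474 on the GnRH array and 0.511 on the vehicle array (-0.11 ± 0.21). The other Plcb1 probes above background on both arrays had both signs (0.17 and -0.26). Plcb3 had 1.98 on the GnRH array and 2.10 on the vehicle array (-0.08 ± 0.20). Plcb4 had 3.90 on the GnRH array and 3.995 on the vehicle array (-0.03 ± 0.20). The values of these 3 isoforms overlap between the arrays within the scanner error. Plcb2, known chiefly from blood cells, stayed below the background call on both arrays with its 2 probes, so no fold is given. The gamma isoforms answer to tyrosine kinases: Plcg1 had 4.29 on the GnRH array and 4.62 on the vehicle array (-0.11 ± 0.20), and Plcg2, also known chiefly from blood cells, was near the detection limit with 0.035 on the GnRH array and 0.041 on the vehicle array (-0.23 ± 0.37). The lowest relative signal of any probe well above background was 0.026 on the GnRH array and 0.028 on the vehicle array.

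Protein kinases C were measured for 7 of 8 genes, with 3 differences above 0 and 4 below. The conventional isoforms, which need calcium and diacylglycerol, differed little: Prkca had 2.03 on the GnRH array and 1.99 on the vehicle array (0.03 ± 0.20), and Prkcb had 1.07 on the GnRH array and 1.02 on the vehicle array (0.07 ± 0.20). Both probes of Prkca gave nearly the same difference (0.03 and 0.04), while those of Prkcb had opposite signs (0.07 and -0.10). Other isoforms need diacylglycerol but not calcium. Among them Prkcd had 5.31 on the GnRH array and 5.73 on the vehicle array (-0.11 ± 0.20). Prkce had 0.326 on the GnRH array and 0.294 on the vehicle array (0.15 ± 0.21). Prkch, at 0.042 on the GnRH array and 0.050 on the vehicle array, had the lowest difference of the 34 genes (-0.27 ± 0.32), and its other probe gave 0.10. The differences of these isoforms thus had both signs. Prkcq, the isoform known from T cells, stayed below the background call with all 3 of its probes. The atypical isoforms, which respond to neither calcium nor diacylglycerol, were as close: Prkci had 5.36 on the GnRH array and 5.80 on the vehicle array (-0.11 ± 0.20), and Prkcz had 1.03 on the GnRH array and 1.07 on the vehicle array (-0.05 ± 0.20). The other Prkcz probes had the opposite sign (0.09 and 0.07).

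Protein kinases D are diacylglycerol-binding kinases that protein kinases C activate. Prkd1 had a relative signal of 0.405 on the GnRH array and 0.460 on the vehicle array (-0.18 ± 0.21), and Prkd2 had 0.800 on the GnRH array and 0.764 on the vehicle array (0.07 ± 0.20). Prkd3 had 6.02 on the GnRH array and 6.20 on the vehicle array (-0.04 ± 0.20). All 3 differences were within the scanner error, and that of Prkd1 was past the single-spot SD of 0.10.

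The tyrosine kinases link calcium and protein kinase C to the MAP kinases. Ptk2b, the calcium-sensitive kinase also called Pyk2, had 0.998 on the GnRH array and 0.969 on the vehicle array (0.04 ± 0.20), and its other probe gave -0.04. Src, the proto-oncogene kinase that partners it, had 0.088 on the GnRH array and 0.061 on the vehicle array, a difference of 0.52 ± 0.27, or 1.43-fold. It was the highest difference of the 34 genes and rests on 1 spot of 1 probe. It was also the only one larger than 1 scanner error, a limit passed by 14.1% of all measured genes; at 2 scanner errors the count was 0 of 34, against 2.67% of all measured genes. With no background correction the difference of Src was 0.24. Dim genes varied more in general: among 3263 genes with a mean relative signal under 0.1, the quartiles of the differences were -0.21 and 0.22, against -0.07 and 0.06 among the 17842 brighter ones. Src, Prkch and Plcg2 were the 3 genes of the set below that signal.

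InsP3 receptors are the calcium channels that InsP3 opens. Itpr1, the main neuronal form, had 14.4 on the GnRH array and 15.2 on the vehicle array (-0.08 ± 0.20). Itpr2 had 1.31 on the GnRH array and 1.41 on the vehicle array (-0.10 ± 0.20). Itpr3 was read by 1 probe printed on 10 spots, which gave 2.22 to 2.52 (median 2.36) on the GnRH array and 2.16 to 2.39 (median 2.27) on the vehicle array. The ranges overlap, but after scaling each spot was higher on the GnRH array than the same spot on the vehicle array, in 10 of 10. The Itpr3 difference was 0.056 ± 0.03 (SD over 10 spots), a spread of the measurement within 1 RNA sample per group. Its scanner error was larger than the difference, at 0.0645. All 10 spots share the scaling of their array, which neither the count nor the SD covers. Before scaling the probe had 1281 on the GnRH array and 1316 on the vehicle array. With array-median scaling the difference was 0.03.

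**Figure D3:**
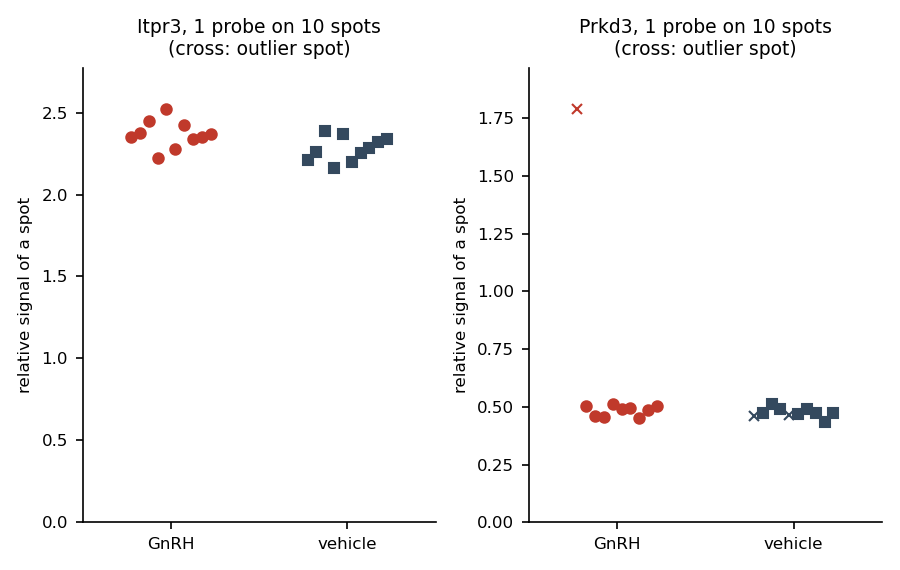
Relative signal of each of the 10 spots of 1 Itpr3 probe (left panel) and 1 Prkd3 probe (right panel) on the GnRH array (red) and the vehicle array (dark); crosses are spots marked as outliers by the scanner software. The Itpr3 spots lie between 2.16 and 2.52, and 1 Prkd3 spot on the GnRH array lies at 1.79, far from the others.

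A second Prkd3 probe, whose sequence is given above, was also printed on 10 spots. Of these, 9 lay between 0.451 and 0.515 on the GnRH array, and all 10 lay between 0.436 and 0.514 on the vehicle array. The remaining spot had 1.79 on the GnRH array and 0.459 on the vehicle array, a difference of 1.96. The scanner software marked that spot as an outlier on both arrays, and it lay in one of 3 areas of the array where neighbouring spots of unrelated genes differed together; the spots around it had a median difference of 2.42. Without outlier spots, 9 on the GnRH array and 8 on the vehicle array were left, and the probe gave 0.02 ± 0.07 (scanner error). Over the 8 spots not marked on either array the difference was 0.01 ± 0.11 (SD over 8 spots). Of the 89 spots of the 36 genes, 3 lay in these areas, for Prkd3 and Itpr3, and no gene had all its spots there.

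CaM kinases II, which decode calcium signals, had all 4 genes measured, with differences from -0.03 to 0.02. Camk2b had 17.3 on the GnRH array and 17.1 on the vehicle array (0.02 ± 0.20), and Camk2g had 16.2 on the GnRH array and 16.3 on the vehicle array (-0.01 ± 0.20). Camk2a, the form typical of forebrain neurons, had 0.378 on the GnRH array and 0.377 on the vehicle array (0.01 ± 0.21). The other Camk2a probe above background on both arrays was dimmer and gave -0.33 ± 0.25. Camk2d was read by 4 probes, and its brightest had 3.73 on the GnRH array and 3.81 on the vehicle array (-0.03 ± 0.20). The second Camk2d probe printed above, listed for another transcript, had 0.161 on the GnRH array and 0.116 on the vehicle array (0.47 ± 0.23). The first, which lies beside it on the same strand, had 1.27 on the GnRH array and 1.37 on the vehicle array (-0.11 ± 0.20).

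Probes of one gene were a further check. Of the 71 probes, 59 were well above background on both arrays, 9 on neither and 3 on the GnRH array only. Over the whole array, too, more spots were well above background on the GnRH array (56.9%) than on the vehicle array (55.2%). The 59 differences ran from -0.40 to 0.52, with 0 past 2-fold and 0 past 1.5-fold. Of all measured genes, 0.308% were higher and 0.133% lower by 2-fold, and 1.19% higher and 0.872% lower by 1.5-fold. Among the 18 genes with more than 1 such probe, 11 had probes of both signs. The widest gaps were in Camk2d (-0.11 to 0.47) and Gna13 (-0.40 to 0.14), each through the dimmest of the gene's probes. The 3 probes above background on the GnRH array only gave folds of 1.59 (Gnas), 1.18 (Plcg1) and 1.16 (Plcb4). Each is the signal on the GnRH array over the lowest signal well above background, or the probe's own signal if higher, on the vehicle array. For Gnas the probe's own signal was higher, so its fold is the plain ratio and not a minimum. The plain differences were 0.67 ± 0.41 (Gnas), 0.30 ± 0.45 (Plcg1) and 1.02 ± 0.72 (Plcb4). The brightest probes of these 3 genes, given above, differed by -0.11 to -0.03, and their other probes above background on both arrays by -0.04 to 0.03.

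**Figure D4:**
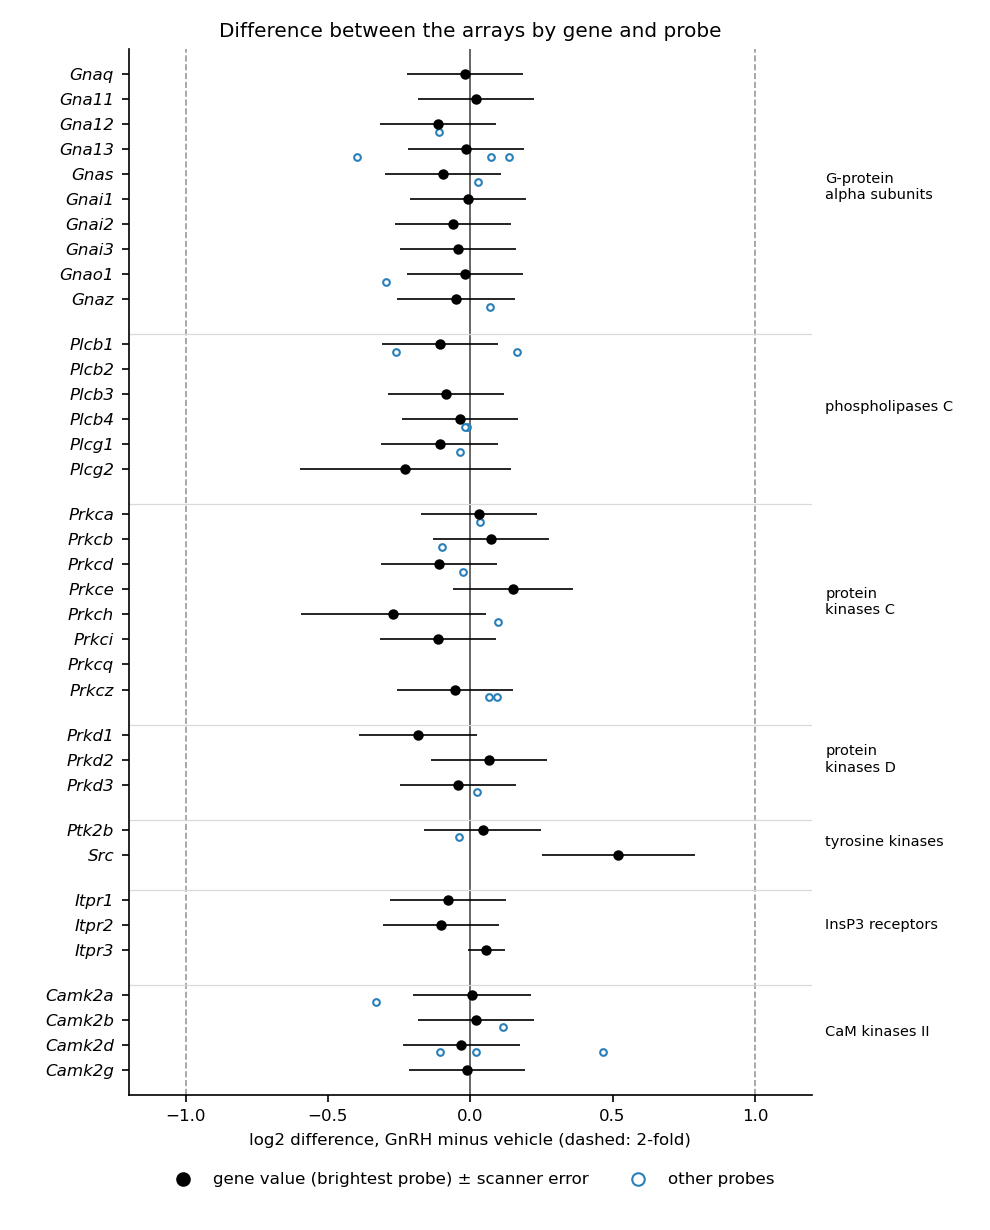
Log2 difference (GnRH minus vehicle) of each gene's brightest probe (black, bars are the scanner error) and of its other probes above background on both arrays (blue open circles); dashed lines mark 2-fold. No probe reaches 2-fold, and Src at 0.52 is the highest.

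The rest of the pathway was read through 10 lists with 130 genes on the array, of which 116 were measured. The count past 2-fold was 0 in each direction (0.308% of all measured genes higher, 0.133% lower), and the median difference was -0.02. Past 1.5-fold was 1 gene of the 116, near the 1.19% of all measured genes that were higher by that much: the receptor kinase gene Grk4, at a relative signal of 0.057 on the GnRH array and 0.035 on the vehicle array (0.71 ± 0.38). The other 7 measured genes of the receptor and its desensitisation, Gnrhr among them, ran from -0.10 in the arrestin gene Arrb1 to 0.12 in the arrestin gene Arrb2. The beta and gamma subunits, which carry part of the G-protein signal, had a median of 0.00 over 15 genes, from Gnb3 (-0.15) to Gnb4 (0.22). Further phospholipases C and kinases had a median of -0.07 over 11 genes, from Plcd1 (-0.22) to Plch2 (0.42). Other alpha subunits were measured for 3 of 6 genes, from Gna15 (-0.13), a Gq-class subunit, to Gnal (0.24), the olfactory subunit.

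Genes that make or use the lipid messengers were as close. Phosphoinositide supply had a median of -0.02 over 12 genes, from Cds1 (-0.18) to the lipid kinase gene Pip5k1a (0.18). Diacylglycerol handling had a median of -0.01 over 15 genes, from Rasgrp2 (-0.52 ± 0.39), an exchange factor gene at a relative signal of 0.035 on the GnRH array and 0.050 on the vehicle array, to Rasgrp4 (0.27). Inositol phosphate metabolism had the highest median of the 10 lists, 0.07 over 9 genes, with the InsP3 kinase gene Itpkc at 0.25 and Impa2 at -0.06. The calcium store and calmodulin list had a median of -0.01 over 25 genes, from the kinase gene Camkk1 (-0.19) to the store-operated channel gene Orai1 (0.27). Substrates and anchors of protein kinase C had a median of -0.06 over 9 genes, from Nrgn (-0.12) to Gnb2l1 (0.08), and the list of Src-family kinases, focal adhesion proteins and adaptors -0.01 over 9, from the exchange factor gene Sos1 (-0.20) to the adaptor gene Pxn (0.24).

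**Figure D5:**
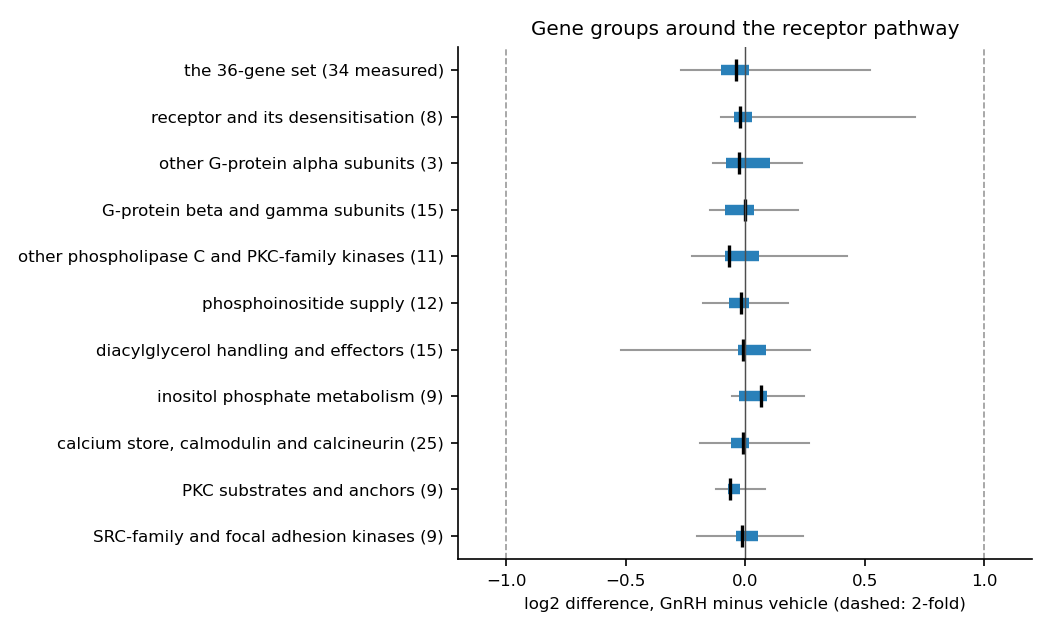
Log2 difference (GnRH minus vehicle) in the 36-gene set and in each of the 10 pathway lists, with the number of measured genes in brackets; thin lines are the full range, thick lines the quartile range and black ticks the median. Medians lie between -0.07 and 0.07, and Grk4 at 0.71 is the farthest value.

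The start-site windows of these genes were compared with those of all genes, using the 250 bases before each start in RefSeq (GRCm38.p6). Windows were matched by symbol for 28 of the 36 genes. Their GC content ran from 56.4% (Prkci) to 82.8% (Src) with a median of 69.8%, against a median of 52.4% over 27025 genes. The cAMP response element TGACGTCA was found on either strand in 0 of 28 genes (1.77% of all genes), and its shorter form TGACG in 2 of 28, Gnas and Prkcz (19.8%). The AP-1 element TGANTCA was found in 1 of 28, Plcb3 (7.82%), the TATAAA box in 2 of 28, Gnas and Prkcd (14.3%), and the CArG box of serum response factor in 0 of 28 (1.62%). A match describes letters in a window, not binding. The windows of Gnaq and of Fos are shown for comparison, with TGACG and TATAAA in capitals; every TGACGTCA match would also hold TGACG.
Gnaq, chr19:16132434-16132683, plus strand: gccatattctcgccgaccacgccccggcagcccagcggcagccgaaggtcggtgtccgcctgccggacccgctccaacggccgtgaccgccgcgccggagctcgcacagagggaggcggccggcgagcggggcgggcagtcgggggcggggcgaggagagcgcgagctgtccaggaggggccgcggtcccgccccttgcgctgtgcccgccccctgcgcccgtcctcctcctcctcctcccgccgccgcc
Fos, chr12:85473640-85473889, plus strand: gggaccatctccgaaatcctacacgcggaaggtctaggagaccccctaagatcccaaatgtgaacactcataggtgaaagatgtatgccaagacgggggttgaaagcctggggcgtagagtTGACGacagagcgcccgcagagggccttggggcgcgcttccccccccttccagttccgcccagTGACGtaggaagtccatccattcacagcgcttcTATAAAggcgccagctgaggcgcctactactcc
The Gnaq window has 79.2% GC and none of the capitals, while the Fos window has 58.4% GC, 2 copies of TGACG and 1 TATAAA box.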

How the data were processed

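Per the file headers, Feature Extraction 10.7.1.1 produced the deposited scanner files, with spatial and multiplicative detrending and surrogate values for spots near background switched on, giving each spot's processed intensity; version 9.5.1.1 is the one in the submitters' processing notes. A value table deposited by the authors, also in linear intensity, served as an alternative, and its normalisation is not given in the sources used here.

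Left out were control spots and outlier spots (94 on the GnRH array, 121 on the vehicle array). Log2 signals of a probe's spots were averaged, minus the array's 75th percentile (541 on the GnRH array, 578 on the vehicle array). A probe was well above background with at least 50% of its spots so marked. Each gene took the value of its brightest probe above background on both arrays. All 36 genes, Gnrhr and Fos are named; of each pathway list, genes past 1.5-fold and otherwise the highest and lowest. Members and lists were chosen with earlier results of these data known. Of the 71 probes, 57 matched a RefSeq accession, all with the same symbol. The steps were tested on simulated data. Tools were Python 3.11.15, statsmodels 0.14.6 and limma 3.58.1 (normexp, offset 50).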

Additional observations from a re-analysis of the deposited data

How the results depend on the processing

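All alternatives were planned. They changed the scaling (array median, quantile, lowess with a fraction of 0.3), background correction (normexp or none), source of values (the authors' value table), dim-probe filter, probe rule, outlier spots, background call, gene names and the areas of the array. The counts of 0 genes past 2-fold and 1.5-fold in either direction held under each but one: with no filter on dim probes, 1 gene, Prkcq, was past 2-fold and 1.5-fold lower on the GnRH array, on a probe not well above background on either array. The count was also 0 at 3-fold. Of the settings that alter which genes count as measured, the looser background call gave 35 and keeping outlier spots, updated names and leaving out the areas each gave 34; the stricter filter left out Src, Prkch and Plcg2, leaving 31. The median of the set stayed between -0.07 and -0.03 over 13 settings, and that of all measured genes between -0.03 and 0.01. Of 439 values of single genes, 1 moved by more than its scanner error, that of Src with no background correction (0.24), and Fos gave 5.30 with normexp and 5.26 with no background correction; the cause was not tested. Signal over background limits the dim genes. No paired analysis was possible because each group has 1 array.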
